A study of Glycine max with 9 samples.

Results

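Root tips of soybean (Glycine max, cultivar Williams 82) harvested after 20 min of sucrose (t20) were compared gene by gene with control root tips (t0). The comparison takes 6 of the 9 libraries of the series, 3 for each time, and the members are all genes tested. Plants of both groups were grown for 4 weeks in Hoagland nutrient solution in a growth chamber with a daily light period. The t20 plants received 10 mM sucrose in that solution 20 min before harvest, and the t0 plants were harvested at 0 min with none. Each library came from the root tip sections of 1 plant. Plants kept for 20 min without sucrose are not among the groups compared, so sucrose, handling and elapsed time cannot be told apart.

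Sucrose is the main form in which carbon travels in the phloem from leaves to roots, and it acts as a signal as well as a fuel. In plant roots, sugar supply is known to affect the uptake and reduction of nitrate, the use of sulfur and phosphate, and the genes of hormone and defence pathways. PEP carboxylase, which makes oxaloacetate from phosphoenolpyruvate, supplies the carbon skeletons onto which reduced nitrogen is loaded, and its kinases modify the enzyme. Transcription factors of the WRKY and MYB families and calcium-binding proteins are common among the early genes of plant responses.

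Expression is given as FPKM (fragments per kilobase of transcript, scaled to library size), summed over the transcripts of a gene. FPKM is scaled to length, so levels of different genes can be set side by side. A gene was tested when 3 or more of the 9 libraries had 1 FPKM or more, which held for 32763 genes. Log2 fold changes are t20 minus t0 on the log2(FPKM + 1) scale, which understates the change of low genes, with their standard error (SE) from limma. Under the adjusted rule a log2 fold change had to reach 1 in either direction with a Benjamini-Hochberg adjusted p below 0.05, and only such genes are said to have risen or fallen. The unadjusted rule asked for the same size of change and an unadjusted p under 0.05, and its calls had adjusted p-values of up to 0.292. Whole tips were sequenced, so fewer cells of a type and less RNA per cell cannot be told apart.

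At 20 min, 251 genes rose (0.766% of those tested) and 51 fell (0.156%). By the unadjusted rule 1748 genes were higher (5.34%) and 417 lower (1.27%). Higher genes made up 83.1% of the adjusted and 80.7% of the unadjusted calls, while the median log2 fold change over every gene tested was 0.024. This share differed with the control level. Genes with a control mean under 1 FPKM can hardly fall on this scale, and mostly passed the filter through other libraries. They gave 563 higher and 0 lower genes by the unadjusted rule. At 20 to 100 FPKM 128 were higher and 124 lower, and at 100 or more 22 were higher and 36 lower. The control level is also subtracted in the fold change, so grouping genes by it favours such a trend by construction. With quantile normalization between libraries the share of higher genes among adjusted calls was 73%. All 3 t20 libraries lay above all 3 t0 libraries for 10.6% of genes and below them for 7.73%. None of the 302 adjusted calls had overlapping libraries.

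**Figure D1:**
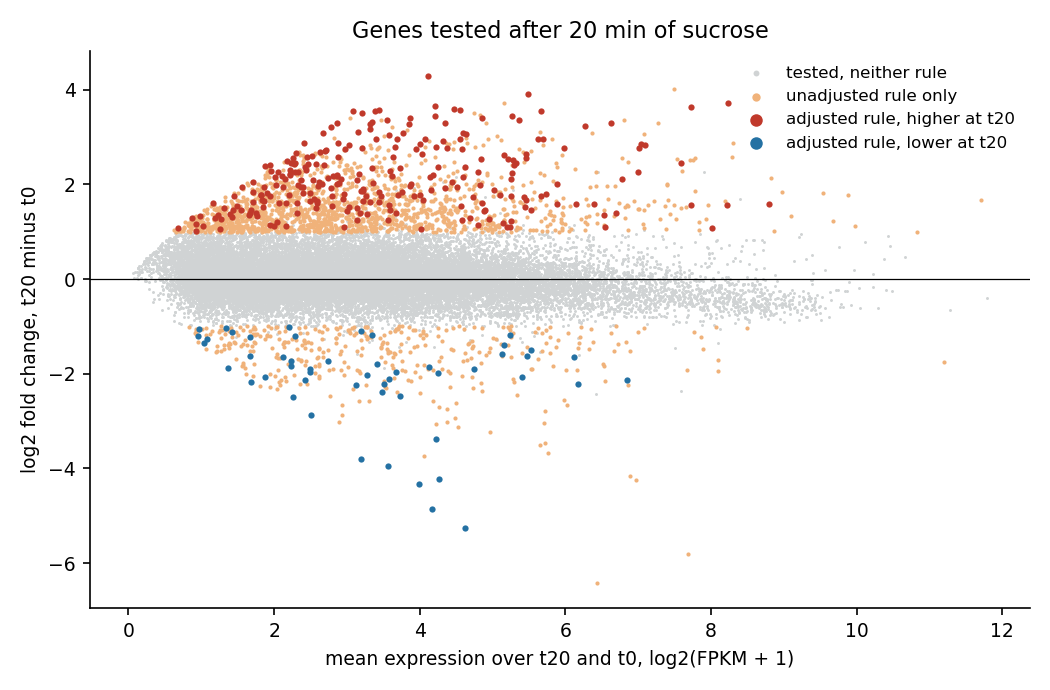
Log2 fold change (t20 minus t0, vertical) against mean log2(FPKM + 1) over t20 and t0 (horizontal), 1 point per gene tested. The 251 rises (red) lie above and the 51 falls (blue) below the bulk of the 32763 genes tested (grey), and orange points pass the unadjusted rule only.

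The number of adjusted calls depended on which libraries were in the fit. The t20 libraries are numbered 4, 5 and 6 and the t0 libraries 1, 2 and 3. Across genes, library 5 had a Pearson correlation with the controls of 0.938 to 0.965, against 0.848 to 0.917 for libraries 4 and 6, while the controls had 0.933 to 0.971 among themselves. Library 5 was the t20 library nearest to the controls in 232 of the 251 rises. Without library 5, 1965 genes rose and 268 fell, and 301 of the 302 calls were among them. Without library 2, 4 or 6 no gene passed the adjusted rule in limma, although 4538, 3214 and 4494 genes had an unadjusted p under 0.05. Without library 1, 3, 7, 8 or 9 (7 to 9 being t40 libraries, which enter the fit for the spread only) the rises numbered 19, 34, 73, 23 and 8 and the falls 3, 49, 21, 13 and 4. A fit of only the 6 libraries of t20 and t0 gave 0 rises and 1 fall in limma, with 4297 genes at an unadjusted p under 0.05. Of the 302 calls, 285 passed the unadjusted rule whichever of the 9 libraries was left out. All 302 passed it in the fit of the 6 libraries. They had been picked on the same libraries by a stricter rule, so this is not independent evidence. Of the genes called by the unadjusted rule itself, 869 of 1748 higher and 197 of 417 lower passed it whichever library was left out.

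Nitrite reductase NIR, which turns nitrite into ammonium in plastids, was among the genes with the smallest p. Its FPKM was 132.3, 67.8 and 128.2 in t20 libraries 4, 5 and 6, against 17.2, 10.7 and 16.4 in t0 libraries 1, 2 and 3 (chromosome 2, 14071124 to 14074789). The groups did not overlap, and the log2 fold change was 2.77 (SE 0.30, limma adjusted p = 0.0212). Inducible nitrate reductase INR2, which carries out the step before it, had 157.9, 64.5 and 183 FPKM at t20 against 22.9, 9.22 and 69.2 at t0. Control library 3 lay above t20 library 5, and INR2 was higher by the unadjusted rule alone (2.27, adjusted p = 0.107). Asparagine synthetase AS1, which makes the nitrogen transport compound asparagine, had 303.9, 69.7 and 186.8 FPKM at t20 against 24.8, 12.5 and 57.1 at t0 (2.55, adjusted p = 0.0949). A gene with the symbol NLP, listed here by that symbol alone, was low throughout. It had 2.27, 0.733 and 2.93 FPKM at t20 and 0.181, 0.113 and 0.0183 FPKM at t0 (1.35, adjusted p = 0.0655). Whether it is a nitrate regulator was not tested. Ammonium transporters AMT2.2, AMT1.6, AMT2.1 and AMT1.3 were also higher by the unadjusted rule, with log2 fold changes of 1.18 to 1.49. Of the 27 nitrate and ammonium genes tested, 8 were thus higher and 0 lower by the unadjusted rule (29.6%, against 5.34% of all genes), and their median log2 fold change was 0.38. Without library 2 or without library 4 the 8 became 5. In narrower lists by symbol, 2 of 6 nitrate genes and 1 of 8 ammonium genes were higher and 0 lower, and the 1 became 2 without library 1.

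A ferredoxin locus, whose product carries electrons to enzymes such as nitrite reductase, rose evenly. The locus joins LOC100813636, also named by the study, and LOC100780276 under 1 gene identifier, and its values are their sum. It had 33.7, 35.4 and 29.1 FPKM at t20 against 13.7, 14.7 and 11.3 at t0. The log2 fold change was 1.25 (SE 0.17, limma adjusted p = 0.0304). Library 5 was the highest of the t20 libraries here. The study's gene was matched to 1 of the 4 transcripts of the locus, and the joined genes were not separated here.

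Among carbon genes, a PEP carboxylase rose while transcripts of PEP carboxylase kinases were lower. PEPC4 had 37.4, 15.2 and 42.1 FPKM at t20 against 4.05, 1.57 and 5.29 at t0 (chromosome 12, 38412403 to 38418647), a log2 fold change of 2.79 (SE 0.43, limma adjusted p = 0.0332). PPCK1 had 1.99, 3.53 and 6.4 FPKM at t20 against 66.2, 30.6 and 19.8 at t0. PPCK2 had 16.4, 29.6 and 23.1 FPKM at t20 against 77.7, 72.8 and 70.8 at t0. Neither kinase had overlapping groups, and both stood just outside the adjusted rule, with log2 fold changes of -2.93 and -1.68 and an adjusted p of 0.0530 for each. PPCK3 had a log2 fold change of -1.39 (adjusted p = 0.158), with 12.6, 27.2 and 19.9 FPKM at t20 against 63.4, 52.4 and 40.8 at t0. Of the 10 genes of this list, 1 was higher and 3 lower by the unadjusted rule, the 3 being the kinases. These were 10% and 30%, against 5.34% and 1.27% of all genes.

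**Figure D2:**
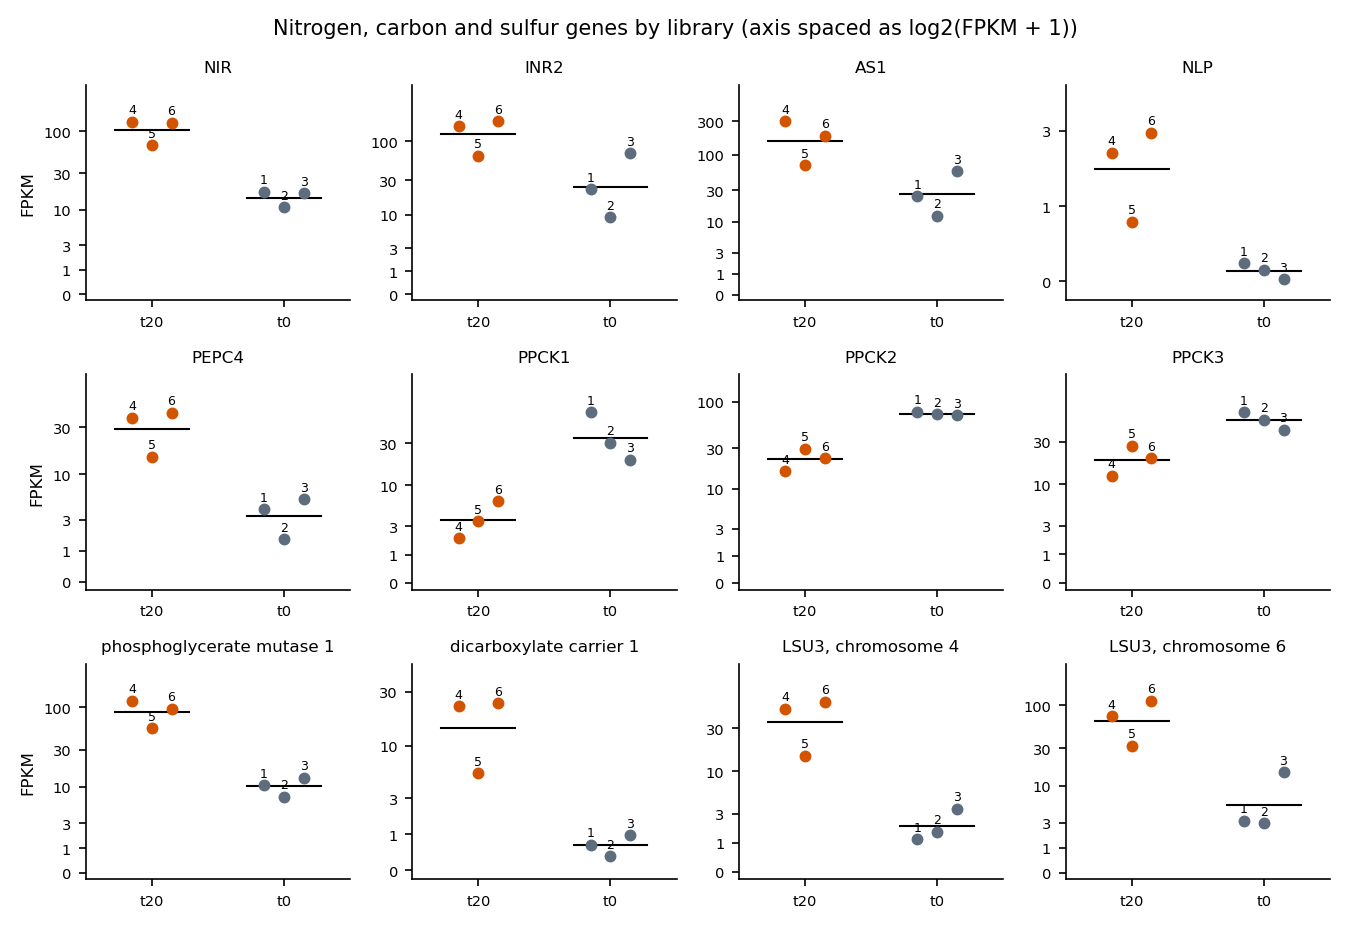
FPKM of 12 genes in each library (points, with the library number; axis spaced as log2(FPKM + 1)) at t20 (left, orange) and t0 (right, grey), with the mean on that scale as a bar. NIR, PEPC4, the phosphoglycerate mutase and both LSU3 genes lie higher at t20 and the 3 PPCK genes lower, while INR2 of control library 3 lies above that of library 5.

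Of the genes the study names, 12 were identified here by their values: the 10 it ranks first at 20 min, and the factors WRKY41 and WRKY33 from its ranking of transcription factors at 40 min. The other factors of that ranking were not matched here. All 12 were among the genes tested, and the study chose them on these samples, so their calls are not independent evidence. As gene sums 10 of the 12 rose. Phosphoglycerate mutase 1 (LOC100784422, chromosome 13, 19104250 to 19110374), an enzyme of glycolysis, had 120.6, 56 and 96.1 FPKM at t20 against 10.6, 7.39 and 13.3 at t0, a log2 fold change of 2.97 (SE 0.31, limma adjusted p = 0.0212). Dicarboxylate carrier 1, a carrier of the inner mitochondrial membrane whose symbol stands in the deposited table as a date, had 22.4, 5.44 and 23.9 FPKM at t20 against 0.632, 0.316 and 0.962 at t0 (3.27, SE 0.50, adjusted p = 0.0332). In both, each t20 library lay above each control by a factor larger than the spread of the controls.

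Both genes named RESPONSE TO LOW SULFUR 3 (LSU3), small proteins known from sulfur-starved Arabidopsis, rose. LOC100820369 (chromosome 4, 48378510 to 48379229, 1 exon) had 48.5, 15.1 and 57.3 FPKM at t20 against 1.18, 1.62 and 3.53 at t0 (3.6, SE 0.49, limma adjusted p = 0.0304). LOC100813653 (chromosome 6, 11319748 to 11320681, 1 exon) had 74.5, 32.4 and 113.5 FPKM at t20 against 3.21, 2.94 and 15 at t0 (3.36, SE 0.56, adjusted p = 0.0380). In both pairs of values control library 3 was the highest control. Enzymes of sulfur use moved less. Of 14 genes of cysteine and methionine synthesis, 2 were higher by the unadjusted rule, the O-acetylserine (thiol) lyases OAS-TL6 (2.2, adjusted p = 0.0660) and OAS-TL2 (1.61, adjusted p = 0.0686), which make cysteine, and the list's median was 0.12. A narrower list by symbol had the same count, 2 of 9. These were 14.3% and 22.2%, against 5.34% of all genes.

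Of the other genes in this group, thermospermine synthase ACAULIS5 (LOC100784972, chromosome 14, 9856855 to 9862080), which in Arabidopsis limits xylem formation, had 54.8, 21.2 and 51.1 FPKM at t20 against 2.51, 1.33 and 3.7 at t0. Its log2 fold change was 3.57 (SE 0.39, limma adjusted p = 0.0212), and it passed the adjusted rule with 6 of the 9 libraries left out in turn, as NIR and phosphoglycerate mutase 1 did. The J domain gene LOC100784637, of a family that assists Hsp70 chaperones, had 24.3, 10.2 and 36.6 FPKM at t20 against 1.83, 2.39 and 0.785 at t0 (3.09, adjusted p = 0.0331). LOC100305767, of unknown function, had 46.6, 11.9 and 41.8 FPKM at t20 against 1.87, 2.05 and 1.36 at t0 (3.44, adjusted p = 0.0316). The 2 that did not rise as gene sums were auxin response factor 9 (LOC100803911) and aminopeptidase M1 (LOC100811437). Auxin response factor 9 had 122.1, 63 and 121 FPKM at t20 against 67.7, 55.3 and 45.3 at t0 (0.81, adjusted p = 0.173). Aminopeptidase M1 had 37.1, 32.7 and 31 FPKM at t20 against 24, 26.5 and 23.3 at t0 (0.43, adjusted p = 0.220). The study's values for them fit 1 of the 5 and 1 of the 4 transcripts of the gene. A gene sum is thus another measure than the study's, and single transcripts were not tested here.

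Where the t20 mean reached 5 FPKM, the largest rise was that of WRKY41 (LOC100815760, chromosome 5, 39684295 to 39686398), also named by the study. It had 46.3, 8.74 and 41.4 FPKM at t20 against 0.486, 0.228 and 0.442 at t0 (4.29, SE 0.52, limma adjusted p = 0.0258). LOC100806204 followed with 3.92 and had 173.4, 16.7 and 63.9 FPKM at t20 against 3.65, 2.49 and 2.56 at t0. LOC100811478, LOC113001461, LOC100804277 and a locus joining LOC100527189 and LOC100801665 rose by 3.55 to 3.65, and the files and the reference give no function for any of them. LOC100804277 was nearly silent in controls, at 0, 0.0895 and 0.206 FPKM, and had 18.4, 3.61 and 22.7 FPKM at t20.

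**Figure D3:**
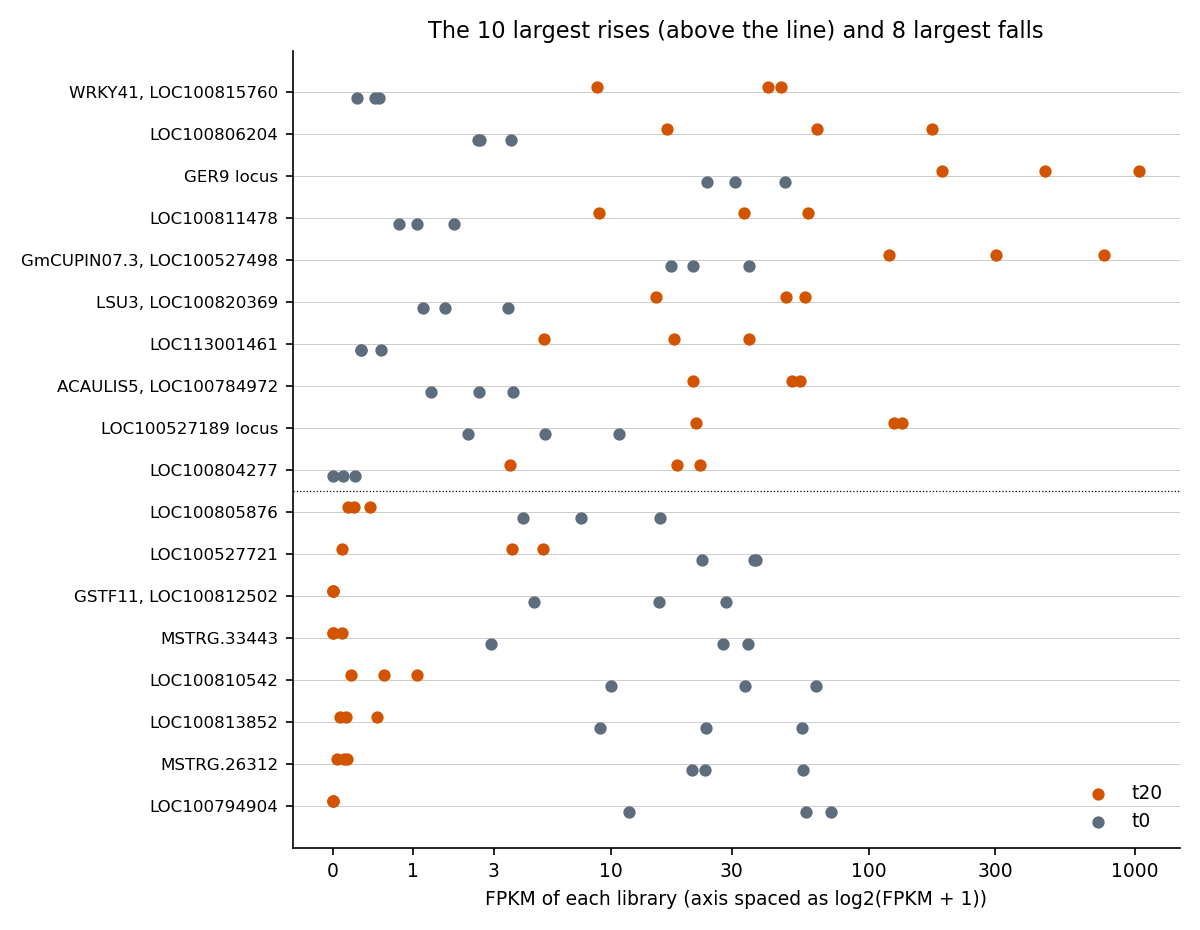
FPKM of each library (points; axis spaced as log2(FPKM + 1)) for the 10 largest rises and, below the dotted line, the 8 largest falls past the adjusted rule with a mean of at least 5 FPKM in the higher group. The t20 points (orange) of the rises lie right of all t0 points (grey), 2 of the falls are listed at 0 in all t20 libraries, and the controls of most falls are themselves spread out.

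Germin-like proteins, extracellular proteins of the cupin fold, gave a pair of the largest rises. The GER9 locus on chromosome 7, which joins 3 annotated genes, had 1040, 188.5 and 461.4 FPKM at t20 against 30.8, 48.1 and 24 at t0 (3.73, SE 0.60, limma adjusted p = 0.0334). GmCUPIN07.3 (LOC100527498) lies within its span on the other strand and had 764, 119.7 and 302.8 FPKM at t20 against 21.2, 34.9 and 17.4 at t0 (3.63, adjusted p = 0.0395). The 2 loci followed each other library by library, and reads may have been shared between near-identical copies. GER3 on chromosome 16 had 570.9, 60 and 189.4 FPKM at t20 against 9.41, 6.78 and 85.7 at t0, where control library 3 lay above library 5 (3.29, adjusted p = 0.130). Of 23 members 4 were higher and 0 lower by the unadjusted rule (17.4%, against 5.34% of all genes higher). The 4 became 8 without library 3 and 3 without library 2 or 4.

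The falls were fewer and the controls less even. LOC100794904 on chromosome 17 was listed at 0 in all t20 libraries, against 71.8, 57.8 and 11.8 FPKM at t0, and GSTF11 (LOC100812502), a glutathione transferase, was listed at 0 at t20 against 28.6, 15.6 and 4.63 FPKM. MSTRG.26312, an assembled locus of 1 exon on chromosome 13 without an annotated name, had 0.132, 0.034 and 0.0953 FPKM at t20 against 56.5, 23.6 and 21.1 at t0 (-4.86, SE 0.87, limma adjusted p = 0.0402), and it is the 1 gene that also passed the adjusted rule in the fit of only the 6 libraries. LOC100813852 and LOC100810542 fell by 4.33 and 4.22 on the log2 scale. LOC100527721 had 0.0782, 5.13 and 3.69 FPKM at t20 against 37.4, 23 and 36.7 at t0, with even controls (-3.38, adjusted p = 0.0399). Control library 3 was the lowest control in 28 of the 51 falls and library 1 the highest in 34. Among the 417 genes lower by the unadjusted rule, library 3 was the control nearest to t20 in 298. Larger differences stood outside the adjusted rule, picked here after their values were seen: LOC100793398 had 0.0498, 0.272 and 0 FPKM at t20 against 309.9, 191.4 and 12.8 at t0 (adjusted p = 0.0530), and LOC100527581 had 2.05, 12.3 and 1.93 FPKM at t20 against 772.2, 365.9 and 73.3 at t0 (adjusted p = 0.0657).

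On chromosome 17, 3 of the falls lay side by side. The assembled locus MSTRG.33443 (9216188 to 9219262), LOC100794904 (9220764 to 9222748) and LOC100820292 (9225626 to 9226695) fell together. The outer 2 had log2 fold changes of -3.95 and -2.46, and the middle one was listed at 0 at t20. In all, 10 pairs of adjusted calls were direct neighbours among the genes tested, and both genes of each pair went the same way. Rises made up 83.1% of the adjusted calls, so most pairs would agree in direction anyway. How many pairs would be neighbours without any link was not computed. The pairs include LOC100776708 and LOC100777247 on chromosome 11 (3.30 and 3.22). These had near-equal FPKM in each t20 library, and reads may have been shared between them. Others are the ethylene gene ACS with LOC100818139 on chromosome 8, and the aquaporin TIP1-6 with the transcription factor MYB139 on chromosome 13 (2.75 and 2.27). One pair overlaps, the germin-like loci above.

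Of the rises with the highest level, an aquaporin and a gene for which the reference used here gives no function stood beside the GER9 locus. PIP2-3, a water channel of the plasma membrane, had 465.2, 309.7 and 564.3 FPKM at t20 against 148.4, 178.1 and 118.9 at t0 (1.56, SE 0.27, limma adjusted p = 0.0390). LOC100780697 had 883.3, 613.2 and 512.0 FPKM at t20 against 234.6, 177.7 and 241.3 at t0 (1.59, adjusted p = 0.0395). Among falls the highest levels were those of LOC100807247, with 27.7, 48.4 and 49.7 FPKM at t20 against 252.8, 164.9 and 144.1 at t0 (-2.14, adjusted p = 0.0316), LOC100803038 (-1.65) and a locus of isoflavone 7-O-glucosyltransferases described with its pathway. The most abundant gene higher by the unadjusted rule, picked after its values were seen, was the proline-rich wall protein locus PRP1 and PRP2, with 6786.2, 2194.5 and 6643.7 FPKM at t20 against 1601.4, 1502.0 and 1282.6 at t0 (adjusted p = 0.0972).

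Of 40 aquaporins tested, 10 were higher and 2 lower by the unadjusted rule (25% and 5%, against 5.34% and 1.27% of all genes), with a median of 0.38, and 3 rose. Beside PIP2-3 these were TIP1-6 (LOC547794), a channel of the vacuolar membrane, with 43.6, 13.6 and 20.9 FPKM at t20 against 5.59, 2.03 and 1.35 at t0 (2.75, limma adjusted p = 0.0386), and the locus of PIP2-12 and PIP2-9, with 53.2, 31.5 and 43.8 FPKM at t20 against 13.2, 14.4 and 11.9 at t0 (1.60, adjusted p = 0.0420). Abundant members such as PIP1-7 changed less, with 2994.2, 1391.6 and 3028.5 FPKM at t20 against 1492.5, 961.3 and 1087.6 at t0 (1.00, adjusted p = 0.177). PIP1-1 (-1.40) and PIP2-7 (-1.13) were lower by the unadjusted rule. Without library 4 the 10 became 6, and without library 1, 3, 4 or 6 the 2 became 1.

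Sugar genes went both ways. The invertase inhibitor GmC/VIF2 (LOC100500640, chromosome 17) had 8.75, 5.99 and 9.47 FPKM at t20 against 2.16, 1.59 and 2.05 at t0, a log2 fold change of 1.61 (SE 0.20, limma adjusted p = 0.0258). Inhibitors of this kind bind invertase, which splits sucrose. The sugar exporter gene SWEET28 had 3.92, 3.08 and 13.5 FPKM at t20 against 0.865, 0.827 and 0.470 at t0 (1.95, adjusted p = 0.0561). SWEET41, with 0, 0.0982 and 0 FPKM at t20 against 11.3, 5.2 and 0.652 at t0 (-2.28, adjusted p = 0.154), SWEET26 (-1.57) and SWEET45 (-1.52) were lower by the unadjusted rule. Of 30 members 6 were higher and 3 lower by that rule (20% and 10%, against 5.34% and 1.27% of all genes), with a median of 0.23. The 6 became 2 without library 4, and the 3 became 1 without library 2 or 4 and 5 without library 3.

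Phosphate and iron genes passed the adjusted rule in no case. Of 62 phosphate genes 6 were higher and 3 lower by the unadjusted rule (9.7% and 4.8%, against 5.34% and 1.27% of all genes). The 6 became 10 without library 1 and 4 without library 4. The smallest p of the list was that of PT11C (1.53, limma adjusted p = 0.0705), which its symbol alone placed there. It has 13 exons, as have the prenyltransferases G4DT and G2DT and the listed PHO1-H9, and whether it is a phosphate gene was not tested. The phosphate transporter PHT1-3 had 183.9, 23.6 and 43.6 FPKM at t20 against 7.83, 5.76 and 31.5 at t0 (2.24, limma adjusted p = 0.160), so control library 3 overlapped library 5. The regulators SPX3, SPX7 and SPX8, which sense phosphate status, were the 3 lower ones. SPX3 had 0.0649, 0.284 and 0.281 FPKM at t20 against 2.46, 3.74 and 1.06 at t0 (-1.42, adjusted p = 0.104). The iron transporter IRT had 6.67, 6.39 and 8.56 FPKM at t20 against 68.2, 43.5 and 19.7 at t0 (-2.29, adjusted p = 0.0770), the lowest p of 17 metal genes, of which 1 was higher and 2 lower. Without library 3 the 2 became 5, and without library 1, 2, 4 or 6 they became 1, while the 1 higher gene was lost without library 2, 3, 4 or 6. Both ALMT genes (anion channels that pass malate) called by the unadjusted rule, of 10 tested, were lower: ALMT34 had 0.678, 0.745 and 0.416 FPKM at t20 against 16.8, 5.86 and 2.37 at t0 (-2.21, adjusted p = 0.109), and ALMT16 had -1.81. In IRT and both ALMT genes control library 1 was the highest control and library 3 the lowest.

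Hormone genes were counted by hormone. The ACC synthase genes ACS1 and ACS, which make the precursor of ethylene, both rose. ACS1 had 9.8, 4.43 and 11.1 FPKM at t20 against 0.730, 2.03 and 0.728 at t0 (2.10, SE 0.33, limma adjusted p = 0.0332), and ACS had 9.07, 1.81 and 7.86 FPKM at t20 against 0.474, 0.413 and 0.322 at t0 (2.17, SE 0.40, adjusted p = 0.0423). With the response factors ERF6 (1.60, adjusted p = 0.0920) and EREBP1 (1.02, adjusted p = 0.0618), 4 of 13 ethylene genes were higher and 0 lower by the unadjusted rule. That was 30.8% higher, against 5.34% of all genes, and the 4 became 3 without library 2, 3 or 6.

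The jasmonate list, named for the pathway from fatty acids to a wound and defence hormone, was made by symbol. By the unadjusted rule 8 of its 18 members were higher and 0 lower (44.4%), with a median of 0.67. Most of the 8 were lipoxygenases (LOX7, LOXB1, LOX10, VLXB and the locus of VLXC), and their part in jasmonate synthesis was not tested. The others were AOS2, AOC1 (1.13, limma adjusted p = 0.139) and AOC2 (1.24, adjusted p = 0.208). Lipoxygenase LOX7 rose, with 41.5, 18.8 and 21 FPKM at t20 against 3.79, 1.1 and 3.87 at t0 (2.85, SE 0.41, limma adjusted p = 0.0316). The abundant vegetative lipoxygenase LOXB1 had 840.6, 697.8 and 801.1 FPKM at t20 against 328.3, 418.2 and 212.6 at t0 (1.33, adjusted p = 0.0527), without overlap. Allene oxide synthase AOS2, an enzyme further along the pathway, had 30.1, 5.87 and 28.2 FPKM at t20 against 4.88, 3.78 and 7.13 at t0, so library 5 lay below control library 3 (1.59, adjusted p = 0.175). Without library 6 the 8 became 5.

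None of 36 auxin carrier, receptor and response genes passed either rule in limma, and their median was -0.07 with a range of -0.78 to 0.84. A narrower list by symbol had 0 of 35. Over all genes the unadjusted rule called 5.34% higher and 1.27% lower. Leaving out library 1 gave 1 lower gene in either list, library 5 gave 2 lower genes and library 6 gave 1 higher gene by the unadjusted rule. Of 33 gibberellin genes 6 were higher and 1 lower by that rule (18.2% and 3%), and none passed the adjusted one. Members of the GASA family of small cysteine-rich peptides led them: GASA27 had 27.9, 45 and 42.4 FPKM at t20 against 6.86, 25.6 and 10.7 at t0 (1.52, limma adjusted p = 0.0910), and GASA26 had 38, 5.15 and 10.9 FPKM at t20 against 1.34, 0.764 and 4.15 at t0 (2.36, adjusted p = 0.120). GA20OX7, annotated as a transcribed pseudogene, was the lower one (-1.90), and 2 were lower without library 2 or 3 and 3 without library 5. The oxidase genes GA3OX3 (1.52, adjusted p = 0.131) and GA2OX1 (1.02, adjusted p = 0.208) were among the higher ones.

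Transcription factors were counted by family symbol, which most factors do not carry. Of 53 WRKY genes, 16 were higher and 0 lower by the unadjusted rule (30.2%), with a median of 0.68, and 45 of the 53 had a log2 fold change above 0. WRKY46 rose, with 13.6, 2.38 and 16 FPKM at t20 against 0.171, 0.049 and 0.125 at t0 (3.08, SE 0.52, limma adjusted p = 0.0386), and so did LOC100805895, with 53.5, 19.7 and 64.7 FPKM at t20 against 8.75, 5.53 and 9.46 at t0 (2.27, adjusted p = 0.0395). WRKY33 (LOC102666898), a defence regulator in Arabidopsis that the study names, had 18.6, 2.92 and 19.5 FPKM at t20 against 0.707, 0.603 and 0.587 at t0 (2.83, adjusted p = 0.0458). WRKY5 (2.67, adjusted p = 0.0550) and WRKY27 (2.79, adjusted p = 0.0631) had similar sizes of change. These counts are by symbol and leave out WRKY33 and WRKY41. In each of the 5 genes given here library 5 was the lowest t20 library. The 16 became 26 without library 5 and 11 without library 2, 4 or 6.

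Of 56 MYB genes 3 rose. MYB139 had 181.8, 141.9 and 311.7 FPKM at t20 against 43.1, 29.7 and 52.8 at t0 (2.27, SE 0.31, limma adjusted p = 0.0304). MYB183 had 55.5, 43.8 and 57.9 FPKM at t20 against 22.6, 24.5 and 18.6 at t0 (1.22, adjusted p = 0.0332), and MYB109 had 2.81, 1.78 and 2.64 FPKM at t20 against 0.543, 0.446 and 0.259 at t0 (1.26, adjusted p = 0.0316). By the unadjusted rule 11 MYB genes were higher and 1 lower (19.6% and 1.8%, against 5.34% and 1.27% of all genes). The 11 became 17 without library 5 and 8 without library 4, and 0 were lower without library 1, 2 or 4.

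The NAC family had 7 of 37 members higher by the unadjusted rule (18.9%, against 5.34% of all genes). They were led by NAC018 with 28.2, 6.18 and 23.5 FPKM at t20 against 3.19, 2.72 and 3.01 at t0 (2.12, limma adjusted p = 0.0705). The count of 7 was not stable: it was 4 without library 2 or 3, 3 without library 4 or 6, and 14 without library 5. Of 95 bZIP and TGA genes 5 were higher and 2 lower, close to the shares of all genes, with 3 higher without library 4 and 11 without library 5. One of the lower ones fell with very even values: BZIP71 had 5.29, 4.51 and 4.65 FPKM at t20 against 10.9, 12.3 and 11.3 at t0 (-1.10, SE 0.15, adjusted p = 0.0316). The heat shock factor HSF-19 rose, with 2.7, 1.59 and 4.8 FPKM at t20 against 0.388, 0.311 and 0.440 at t0 (1.47, adjusted p = 0.0411), and was the 1 of 33 such factors called. Without library 5 the count was 4, and 2 without library 2 or 4. A DREB1-like gene, of the dehydration and cold response, had 5.27, 1.32 and 9.61 FPKM at t20 against 0.144, 0.072 and 0.202 at t0 (2.24, adjusted p = 0.0556), and was the 1 of 7 such factors called, with 2 called without library 1 or 5. Of 13 LBD factors 2 were higher and 2 lower, with 1 higher without library 1 or 4, and 3 of 27 NF-Y factors were higher, or 1 without library 4 or 6. NF-YC12 was listed at 0 in all controls and had 1.18, 0.225 and 2.75 FPKM at t20.

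**Figure D4:**
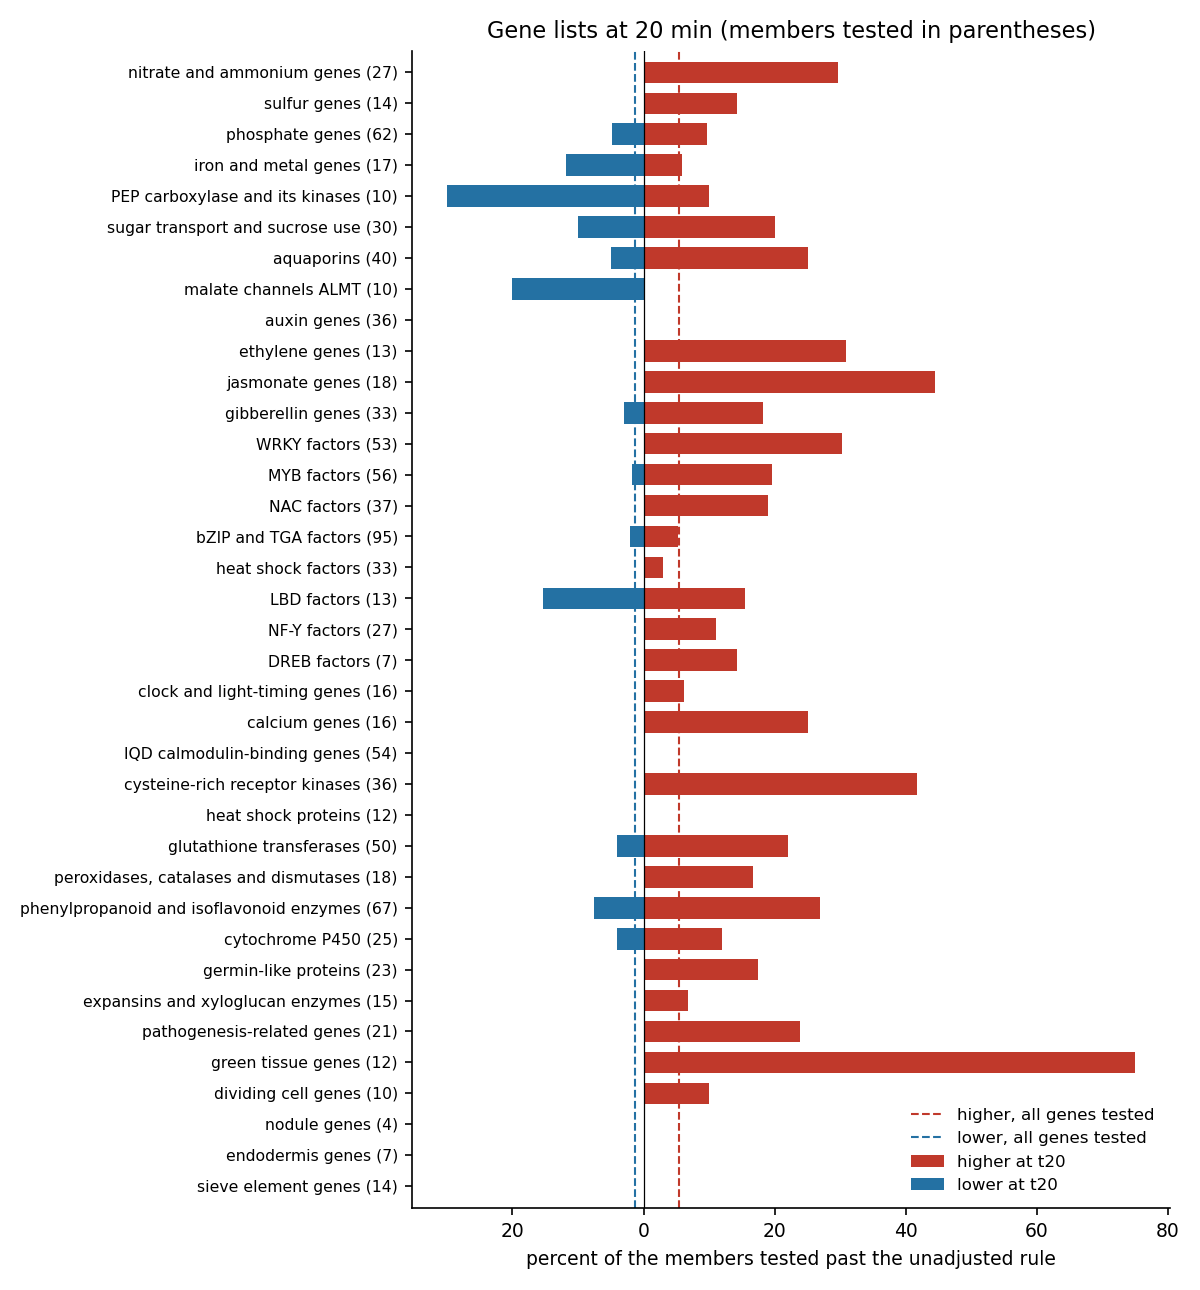
Percent of the tested members of each gene list described in the text (bars; number tested in parentheses) that were higher (red, right) or lower (blue, left) at t20 by the unadjusted rule, with the shares over all genes tested (5.34% higher, 1.27% lower) as dashed lines. Jasmonate genes, cysteine-rich receptor kinases and green tissue genes have the longest bars on the right, PEP carboxylase and its kinases on the left, and auxin, IQD, heat shock protein, nodule, endodermis and sieve element genes have none.

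Of 36 cysteine-rich receptor kinases (CRK), membrane kinases known from stress and defence, 15 were higher and 0 lower by the unadjusted rule (41.7%), with a median of 0.84, and 34 had a log2 fold change above 0. CRK70 rose, with 30.7, 12.3 and 24.9 FPKM at t20 against 5.06, 6.83 and 2.48 at t0 (2.02, SE 0.38, limma adjusted p = 0.0423). CRK41 had 12.4, 2.47 and 8.91 FPKM at t20 against 1.06, 0.536 and 1.68 at t0 (1.92, adjusted p = 0.0736). Library 4 was the highest t20 library in both, and without it the 15 became 7.

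Of 16 calcium genes, 4 were higher by the unadjusted rule (25%, against 5.34% of all genes) and 0 lower. The calcium pump SCA1 rose, with 19.9, 6.76 and 15 FPKM at t20 against 3.47, 3.1 and 1.98 at t0 (1.86, SE 0.34, limma adjusted p = 0.0420). The annexin ANN11 had 15.9, 1.61 and 1.87 FPKM at t20 against 0.158, 0.557 and 0.0593 at t0, a value that library 4 carried (2.02, adjusted p = 0.153). The calmodulins SCAM-4 (1.38) and SCAM-5 (1.27) were the other two, and without library 4 the 4 became 2. Of 54 IQD genes, which encode calmodulin-binding proteins, none passed either rule in limma and the median was -0.02. Leaving out library 2 or 5 gave 2 higher IQD genes and library 3 or 6 gave 1.

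The phenylpropanoid and isoflavonoid pathways, which lead to lignin and to soybean's phytoalexins (the glyceollins), held genes of both directions. Of 67 loci 18 were higher and 5 lower by the unadjusted rule (26.9% and 7.5%), with a median of 0.07. Among early steps, phenylalanine ammonia-lyase PAL3.1 (1.38) and the coumarate ligase 4CL3 (1.29) were higher by that rule. C4H1 and 4CL2, described below, were lower by it. Of 13 chalcone synthase (CHS) loci tested, the entry enzyme of flavonoids, 7 were higher by that rule with log2 fold changes of 1.05 to 2.88, and 6 of the 7 lie on chromosome 8. The locus of CHS1 and CHS9 had 46.3, 8.91 and 89.1 FPKM at t20 against 2.78, 4.92 and 4.61 at t0 (2.80, limma adjusted p = 0.0765). CHS loci are near copies of each other, and reads may have been split between them. Chalcone reductase CHR2 (1.56), isoflavone synthase IFS2 (1.62), the locus of isoflavone 2'-hydroxylase I2'H (1.37), isoflavone reductase IFR (1.68) and the prenyltransferases G4DT (2.28) and G2DT (1.44) were higher by the unadjusted rule too, none with an adjusted p under 0.05. IFS2 had 77.9, 18.9 and 94.8 FPKM at t20 against 12.3, 15.3 and 22.9 at t0, so that library 5 lay within the controls.

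At 2 other points of these pathways transcripts fell. The locus of IF7GT3 and UGT2, glucosyltransferases that attach glucose to isoflavones, had 22.9, 23 and 22.2 FPKM at t20 against 187.4, 70.7 and 99.6 at t0 (-2.22, SE 0.37, limma adjusted p = 0.0380). Cinnamate 4-hydroxylase C4H1, an early step, had 1.11, 4.39 and 3.38 FPKM at t20 against 18.8, 14.6 and 9.67 at t0 (-2.02, SE 0.35, adjusted p = 0.0395). The lignin gene CYP98A2 had 21.4, 26 and 37.8 FPKM at t20 against 106.1, 74.7 and 46.3 at t0 (-1.34, adjusted p = 0.0921), and 4CL2 (-1.28) and CHS13 (-1.31) were lower by the unadjusted rule as well. The 5 lower members became 10 without library 3, and the 18 higher ones became 14 without library 3 or 4 and 23 without library 5. Of 25 P450 genes named by family, 3 were higher by the unadjusted rule and 1, CYP98A2, lower (12% and 4%, against 5.34% and 1.27% of all genes). The 3 became 6 without library 1 and 5 without library 5.

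Of 50 glutathione transferases, which conjugate reactive compounds, 11 were higher and 2 lower by the unadjusted rule (22% and 4%), with a median of 0.31. GSTIR rose, with 48.4, 8.24 and 31.5 FPKM at t20 against 3.31, 1.84 and 1.61 at t0 (2.95, SE 0.52, limma adjusted p = 0.0395), and GSTF11 was the fall already given. Without library 4 the 11 became 7 and without library 6 they became 6. In a list of peroxidases, catalases and dismutases that also held an alternative oxidase, 3 of 18 were higher by the unadjusted rule. This was 16.7%, against 5.34% of all genes, and the 3 became 2 without library 6 and 4 without library 4 or 5. The class III peroxidase Ep had 191.9, 22.9 and 59.3 FPKM at t20 against 11.2, 4.03 and 6.14 at t0 (3.10, adjusted p = 0.0629). POD had 51.8, 8.72 and 10.1 FPKM at t20 against 2.33, 4.19 and 1.19 at t0 (2.41, adjusted p = 0.0952), and the alternative oxidase AOX3 of mitochondria had 1.22 (adjusted p = 0.0834). Both peroxidases were highest in library 4.

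Defence and stress genes were uneven among the t20 plants. The N-rich protein NRP-A, known from cell death under stress in soybean, rose, with 61.6, 18.5 and 65.7 FPKM at t20 against 8.5, 6.1 and 5.11 at t0 (2.54, SE 0.41, limma adjusted p = 0.0340). EDS1-2, of a family of immune regulators, had 22.6, 7.07 and 18.3 FPKM at t20 against 7.61, 4.52 and 5.14 at t0 (1.22, adjusted p = 0.128), with library 5 inside the controls. Of 21 pathogenesis-related genes 5 were higher by the unadjusted rule (23.8%, against 5.34% of all genes) and 0 lower, with 2 without library 4 and 15 without library 5. Their median log2 difference from the control mean was 1.83 in library 4, -0.02 in library 5 and 0.66 in library 6. None of 12 heat shock protein genes passed either rule in limma (median -0.28). Leaving out library 3 or 5 gave 1 lower heat shock gene by the unadjusted rule, and library 6 gave 2. The expansin EXP1, which loosens cell walls, was the 1 of 15 wall genes called by the unadjusted rule (1.34, adjusted p = 0.132), a count of 0 without library 4 and 2 without library 1 or 5.

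Markers of other tissues and states were measured in the same fit. Green tissue genes moved with the group: 9 of 12 were higher (75%, against 5.34% of all genes) and 0 lower by the unadjusted rule, with a median of 1.42, and 2 rose. Rubisco activase RCAALPHA had 3.24, 1.65 and 8.44 FPKM at t20 against 0.0792, 0.211 and 0.115 at t0 (2.06, SE 0.37, limma adjusted p = 0.0411), and the magnesium chelatase subunit CHLH of chlorophyll synthesis had 6.51, 2.73 and 8.31 FPKM at t20 against 1.04, 1.19 and 1.07 at t0 (1.61, adjusted p = 0.0420). The chlorophyll a/b-binding protein gene CAB3 had 114.2, 56.3 and 335 FPKM at t20 against 44.2, 16.8 and 46.1 at t0 (1.96, adjusted p = 0.142), so this RNA was present in control tips too. The summed FPKM of the list was 241.8 to 945.3 at t20 and 190.0 to 396.2 at t0, and none of 7 chlorophyll-binding and Rubisco small subunit genes was at 0 in all 6 libraries. The part of green tissue RNA in the other results was not tested.

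Other marker lists moved less. Of 16 clock and light-timing genes 1 was called, LCL3 (1.03, limma adjusted p = 0.193), and the median was 0.00, with 0 to 2 called when 1 library was left out. Of 10 cell cycle and histone genes, the histone gene H4 alone was higher by the unadjusted rule, with 1735, 491.2 and 1320.8 FPKM at t20 against 290.2, 258.9 and 347.5 at t0 (1.81, adjusted p = 0.0861), while the list's median was -0.14. Of 16 nodulins, markers of the nitrogen-fixing nodule, 9 were at 0 in all 6 libraries and 4 were tested, and NOD33 made up most of their sum (141.22 to 444.76 FPKM at t20, 107.41 to 279.66 at t0). None of the 4 was called by either rule in limma, and 2 were higher by the unadjusted rule without library 5. The broader nodule list that also caught LBD factors had 2 of 15 higher and 2 lower, with 1 higher without library 1 or 4 and 5 without library 5. Casparian strip genes of the endodermis and sieve element genes of the phloem, 7 and 14 in number, gave no call by either rule in limma. Their medians were 0.59 and 0.38, and by the unadjusted rule 2 endodermis genes were higher without library 2 and 1 sieve element gene without library 4. Both were highest in library 5, where the median differences from the control mean were 1.04 and 0.76, against 0.14 and 0.20 in library 4.

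**Figure D5:**
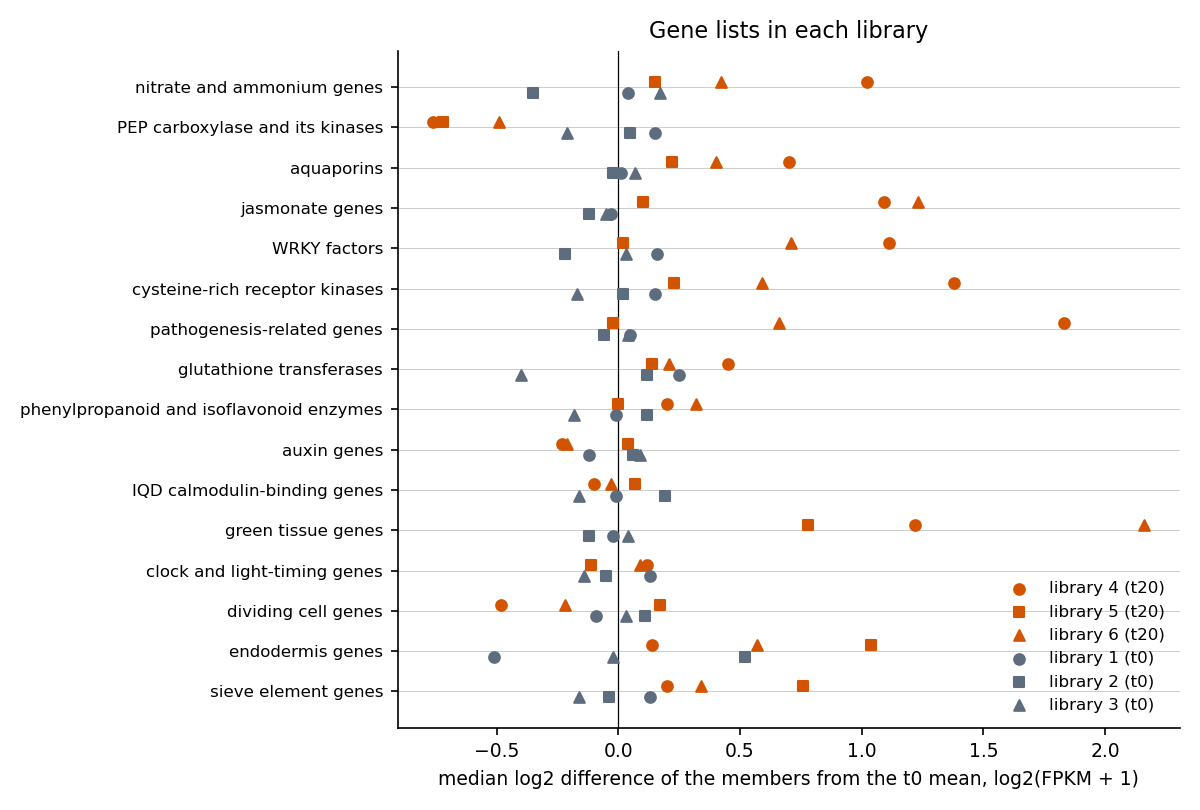
Median log2 difference of a list's members from the t0 mean (horizontal, log2(FPKM + 1)) in each t20 (orange) and t0 (grey) library; the shape gives the library. Library 5 lies among the controls for WRKY and pathogenesis-related genes, green tissue genes lie right of the controls in all 3 t20 libraries, and endodermis and sieve element genes are highest in library 5.

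The levels of called genes are a description, since the fold that chose them uses the control mean and a gene near 1 FPKM in controls can hardly fall on this scale. The median FPKM of the rises was 15.2 at t20 and 1.96 at t0, and 34.3% had a control mean under 1, against 8.38% of all genes tested. A gene with such a control mean passed the filter mostly through other libraries. Falls had a median of 1.96 FPKM at t20 and 14.3 at t0. By the unadjusted rule, higher genes made up 5.65% of genes with a control mean of 1 to 5 FPKM, 3.06% of those with 5 to 20, 2.57% of those with 20 to 100 and 1.85% of those at 100 or more, while lower genes made up 0.739%, 1.41%, 2.49% and 3.02%. By the unadjusted rule 9 of the higher genes were listed at 0 in all controls, with 0.0894 to 11.3 FPKM at t20 and at most 1.02 in library 5.

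Called genes had fewer exons than genes at large. Among rises 21.5% had 1 exon and among falls 39.2%, against 13.5% of all genes tested, and the median number of exons was 4, 2 and 5. Their median span in the genome was 2859 bases for rises, 1372 for falls and 3939 for all. Loci without an annotated name made up 2.79% of the rises and 19.6% of the falls, against 3.9% of all, and long noncoding RNAs were 2 of the rises and 0 of the falls. Calls were spread over all 20 chromosomes, with 4 to 21 rises on each.

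The t20 libraries differed in how far they had moved. Over the 251 rises the median log2 difference from the control mean was 2.39 in library 4, 1.31 in library 5 and 2.39 in library 6. For the genes higher by the unadjusted rule it was 2.08, 0.69 and 1.65, and over all genes tested 0.01, 0.09 and -0.03. The falls were more alike, at -2.37, -1.62 and -1.74. The median SD on the log2(FPKM + 1) scale was 0.68 at t20 and 0.25 at t0 for the rises, 0.35 and 0.41 for the falls, and 0.28 at both times over all genes tested. The rises are low in controls by selection, and this scale compresses the spread of low values.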

How the data were processed

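Root tip RNA of 9 plants, 3 for each time, was sequenced as stranded mRNA libraries. Per the submitters' notes and the study's methods, the authors demultiplexed with bcl2fastq 2.20, trimmed with Trimmomatic 0.32, aligned with HISAT2, assembled with StringTie and read out FPKM per transcript with Ballgown, on the soybean assembly Glycine_max_v4.0. Coordinates are those of the deposited table. Columns give time but no replicate number, so libraries carry the numbers of the table. A further 9 value columns could not be matched to samples and were not used. FPKM holds no depth, and the read pairs per library that the study lists were not used here, so no counting interval is given, and p-values measure the spread between plants.

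FPKM was summed over rows of one gene identifier (876 identifiers join more than 1 annotated gene). Genes for which 3 or more of the 9 libraries had 1 FPKM or more were tested on log2(FPKM + 1) with limma 3.58.1 in R 4.3.3, all 9 libraries in one fit with a variance trend, contrast t20 minus t0, Benjamini-Hochberg over 32763 genes. The fit was tested on simulated data. Lists were made from gene symbols after these were seen, since the planned protein patterns and promoter words could not be applied with the reference used here. A planned nodule list also matched LBD factors and was replaced. Members and lists were chosen with earlier results of these data known. Named genes are the 10 largest rises and 8 largest falls past the adjusted rule with no overlap and a mean FPKM of at least 5 in the higher group, up to 3 members of each list by smallest p (or the most abundant where none was called), the 3 rises and 3 falls of highest level, and the genes the study names, matched by their values. Further members of the lists are given with their values. Names were found for 58275 of 58297 gene names in RefSeq's table. The result of 1 further gene list is not reported here.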

Additional observations from a re-analysis of the deposited data

How the results depend on the processing

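The 115 genes named by the rule kept their direction under every alternative in which they were tested (stricter filters left some out), but the counts of adjusted calls moved widely. With pseudocounts of 0.1 and 0.5 the rises numbered 633 and 399 (falls 73 and 66), with a mean FPKM of at least 5 they numbered 157 (falls 26), with quantile normalization 103 (falls 38), with median-ratio scaling 102 (falls 35), and with limma array weights 2033 (falls 659). Testing every gene above 0 in at least 1 library gave 0 rises and 0 falls in limma, with 6644 genes at an unadjusted p under 0.05, and the fit of 6 libraries gave 0 and 1. By the unadjusted rule, the pseudocount of 0.1 gave 2638 higher and 673 lower genes, a mean FPKM of at least 5 gave 1001 and 266, and array weights gave 2103 and 727. The causes were not tested. Leaving out each library in turn gave 0 to 1965 rises and 0 to 268 falls, and by the unadjusted rule 1072 to 2654 higher and 304 to 632 lower genes. The share of genes without overlap, 18.3%, was 21.5% to 40% with a library of t20 or t0 left out, where fewer samples overlap less by construction. No paired analysis was possible because the columns carry no replicate number. The precision set by depth was not computed, since FPKM holds no counts.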
